A study of Mus musculus with 6 samples.

Results

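The lysosome genes described here are 48 transcripts of alveolar macrophages, of 46078 gene rows in the deposited count table. They were chosen by gene symbol and fall into 8 lysosome membrane proteins, 16 hydrolases, 3 luminal proteins without enzyme activity of their own, 2 transcription factors, and 9 V0 subunits, 8 V1 subunits and 2 accessory proteins of the vacuolar proton pump. Polyadenylated RNA was sequenced from alveolar macrophages sorted from the lungs of untreated mice. The control group was Car4fl/fl (3 mice), which carry loxP-flanked alleles of Car4, the gene of the membrane-anchored carbonic anhydrase 4. The second group was Car4fl/fl-CD11cCre (3 mice), which carry the floxed Car4 and in addition Cre under control of CD11c, an integrin chain whose gene is Itgax. CD11c is also made by dendritic cells and some other myeloid cells, so the Cre is not restricted to alveolar macrophages. No group carried the Cre without floxed Car4, so effects of the Cre itself and of losing Car4 cannot be told apart. The sources used here do not give the age of the mice.

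Lysosomes are acidic organelles in which macrophages break down what they take up. The V-ATPase pumps protons into them. Its V1 part, in the cytosol, hydrolyses ATP, and its V0 part, in the membrane, carries the protons. Hydrolases with an acidic pH optimum then cut proteins, sugars, lipids and nucleic acids, and heavily glycosylated membrane proteins line the organelle. Alveolar macrophages use this system to clear surfactant lipid and inhaled particles. The transcription factors TFEB and TFE3 bind a motif called CLEAR, which was first described in promoters of lysosome genes.

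The libraries held between 53824475 and 65443314 counts. Values are CPM, the counts of a gene scaled to equal library size after TMM normalization, and 3 counts correspond to 0.0465 to 0.0557 CPM, a limit that covers counting error only. Car4 was at 499, 385 and 270 CPM in control libraries 1, 2 and 3 and at 40.2, 46.9 and 36.3 CPM in Cre libraries 1, 2 and 3, so the labels hold for the targeted gene. Its log2 fold change was -3.23 ± 0.22 (SE, edgeR adjusted p 0.0047). It lies at chr11:84957786-84966044 (GRCm38). All 12 alveolar macrophage markers had a mean of at least 1 CPM, and their sum was 22849 to 26136 CPM in the controls and 28048 to 41782 CPM in the Cre libraries. Most of this sum was Chil3, and without Chil3 and the targeted Car4 the other 10 markers summed to 8032 to 8364 against 8785 to 9080.2 CPM. These 10 include Itgax, the gene of CD11c that controls the Cre, at 1869, 1725 and 1484 CPM against 2385.5, 2578 and 2350 CPM. No sum without Itgax was taken. Siglecf, a surface lectin of these cells, was at 752, 663 and 708 CPM against 592, 464 and 585 CPM, without overlap (edgeR adjusted p 0.197). Marco, Chil3, Itgax, Mrc1 and Fabp5 were higher without overlap, and Pparg, Ear2, Krt79, Fabp1 and Fabp4 overlapped. Cre library 1 stood apart from the other Cre libraries: on the first principal component of all genes (47% of the variance) it was at 0.444, with Cre libraries 2 and 3 at 39.8 and 39.4, and the controls between -29.7 and -22.5. The summed level of 10 interstitial macrophage markers, mostly Apoe, was 101.8 to 119 CPM in the controls and 117, 302 and 597 CPM in Cre libraries 1, 2 and 3. Of these 10 markers 8 had a mean of at least 1 CPM, none was at 0, and 7 had a fold change above 0. C1qa, C1qb and C1qc were higher without overlap (log2 fold changes 3.74, 3.81 and 3.43). Cd163 was lower without overlap (-1.53), and Folr2 and Lyve1 were lower with overlap. DESeq2 called 5 of the 10 higher and 1, Cd163, lower, and edgeR called 0 (smallest adjusted p 0.146). The summed neutrophil markers were at 52.5 to 58.7 against 65.5 to 70.8 CPM, with Ly6g at 0 in every library. Csf3r made up most of the neutrophil sum, and the other 7 neutrophil markers summed to 12.5 to 14.1 against 13.8 to 26.7 CPM, with overlap. The osteoclast markers summed to 539 to 791 against 545 to 866 CPM. Ctsk made up most of the osteoclast sum, and the other 7 markers summed to 116 to 121 against 105 to 119 CPM, mostly Nfatc1. Among them Dcstamp was at 0.0664, 0.216 and 0.0704 CPM against 0.186, 1.12 and 2.34 CPM, Mmp9 at 0.664, 0.715 and 0.669 against 0.896, 3.18 and 2.49 CPM, and Itgb3 at 0.249, 0.166 and 0.317 against 0.152, 0.558 and 2.58 CPM. DESeq2 called Dcstamp and Mmp9 higher (adjusted p 0.00232 and 0.00568), and edgeR called neither (0.193 and 0.185). Type 2 cell markers summed to 180.3 to 192 against 179 to 237 CPM, with the highest value in Cre library 1. The remaining lists, for monocytes, dendritic cells, eosinophils, T and NK cells, B cells, airway epithelium, and endothelium and fibroblasts, each summed to at most 32.7 CPM in any library.

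Promoter windows of RefSeq (GRCm38.p6) were found for 40 of the 48 members. In the 250 bases before the start, the CLEAR core GTCACGTG, searched on both strands, occurred in 8 of these 40 (Atp6v0b, Gla, Glb1, Lamp1, Lgmn, Mcoln1, Naglu and Sgsh), which is 20%, against 2.11% of 27025 genes with a window and 3.799% of 10239 tested genes. The shorter E-box CACGTG, which the CLEAR core contains, occurred in 9 of 40 members (22.5%). It occurred in 6.86% of all genes with a window and in 9.58% of the tested genes. These counts, for the members and for all genes, include matches in bases annotated as exon. For Naglu and Sgsh no stretch with the core remained once annotated exon bases were left out. A match describes letters only and shows no binding. Parts of 4 windows are printed, namely the motif with up to 40 bases on each side. Those of Lgmn and Gla were taken because these members were above every control in Cre libraries 2 and 3. Those of Lamp1 and Mcoln1 were taken because the difference between the genotypes was small. Capitals mark the CLEAR core or its reverse complement, each sequence runs 5′ to 3′ on the gene's strand, and annotated exon bases are left out.
Lgmn, minus strand of chr12:102439096-102439183: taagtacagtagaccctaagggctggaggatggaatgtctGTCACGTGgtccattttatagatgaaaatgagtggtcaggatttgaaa
Gla, minus strand of chrX:134601154-134601241: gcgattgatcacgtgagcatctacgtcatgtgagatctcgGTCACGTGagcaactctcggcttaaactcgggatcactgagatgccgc
Lamp1, plus strand of chr8:13159093-13159160: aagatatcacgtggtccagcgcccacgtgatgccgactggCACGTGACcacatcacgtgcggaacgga
Mcoln1, plus strand of chr8:3500406-3500456: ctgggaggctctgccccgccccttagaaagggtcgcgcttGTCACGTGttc
The first base of the motif lay 51 bases before the RefSeq start in Lgmn, 196 in Gla, 28 in Lamp1 and 73 in Mcoln1, whose full window held 2 matches, of which 1 is printed. The Lgmn stretch lies inside the span of the gene in GENCODE M21, chr12:102394084-102439813. The RefSeq start used for Lgmn is therefore downstream of the 5′ end of that span. The 8 members with the core had log2 fold changes between the genotypes from -0.09 to 0.49 (median 0.01), and the 32 members without it from -0.26 to 0.94 (median 0.03).

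None of the 48 members passed the genotype comparison. All 48 were tested, and the smallest adjusted p was 0.28 for Lgmn (edgeR quasi-likelihood test, Benjamini-Hochberg over 15147 genes). Among all tested genes 0.0132% passed, that is 2 genes, 0.0066% higher and 0.0066% lower, and neither is a member. Before adjustment, 5 members had p below 0.05 and were higher in the Cre libraries (Lgmn, Psap, Cd63, Gla and Atp6v0d2), and 0 were lower. The same limit was met by 12.8% of all genes, 6.54% higher and 6.28% lower. DESeq2 called 1 member higher, Lgmn (adjusted p 0.0284), and 0 lower, against 2.37% and 1.51% of the genes it gave an adjusted p. Of the 48 members 32 had a fold change above 0, and their median log2 fold change was 0.03, against -0.002 over all genes, of which 49.4% were above 0. When 1 library was left out the count above 0 ran from 22 to 39. Without Cre replicate 2 it was 22 (members' median -0.0086), and without control replicate 2 it was 24 (0.0065). Without control replicate 1 it was 39 (0.0653). Without control replicate 3, Cre replicate 1 and Cre replicate 3 it was 30, 34 and 33. Fewer cells of a type and less RNA per cell cannot be told apart in these bulk samples.

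**Figure D1:**
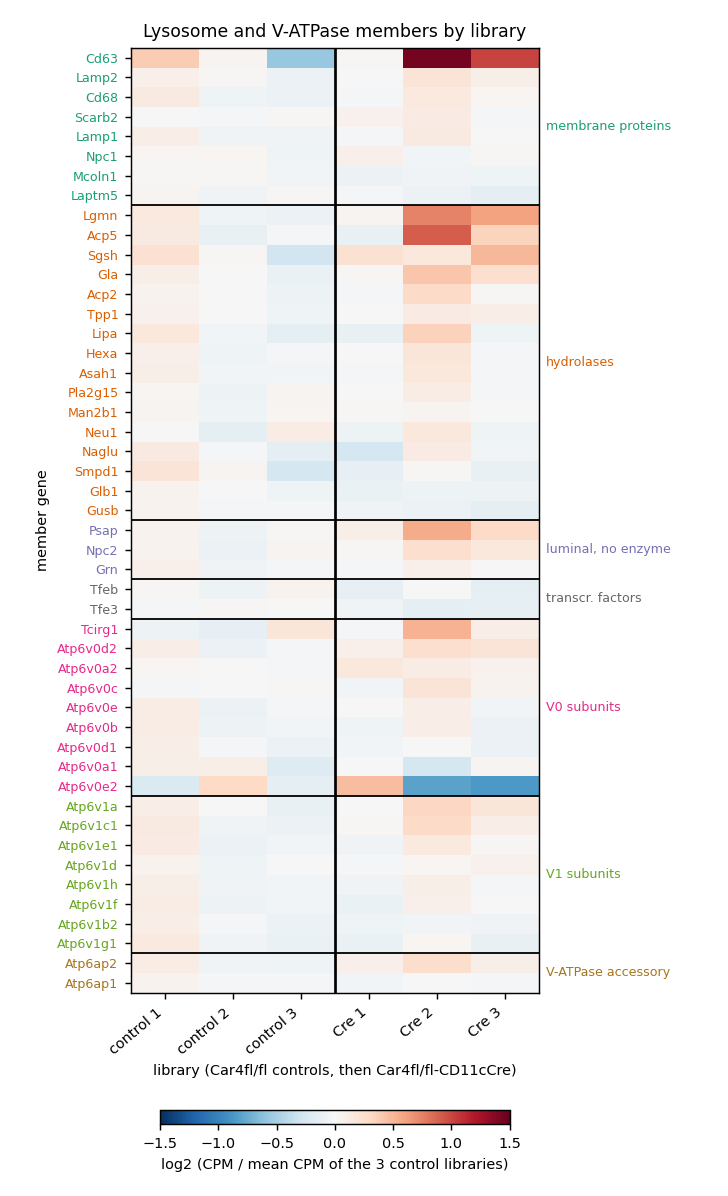
Heat map of the 48 members (rows, grouped by role) in the 6 libraries (columns). The colour gives log2 of the CPM over the mean CPM of the 3 control libraries. Cd63, Lgmn, Acp5, Gla, Psap and Tcirg1 are highest in Cre library 2, and Atp6v0e2, at 0.149 to 0.372 CPM, has its lowest values in Cre libraries 2 and 3.

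For 42 of the 48 members the 95% interval of the difference lay within a fold of 1.5 in either direction. The same held for 62.5% of all tested genes and for 94% of those with a mean of at least 10 CPM. The 6 members whose interval reached past this fold were Cd63, Lgmn, Acp5 and Psap on the higher side, Sgsh on the higher side, and Atp6v0e2 on both sides. Sgsh and Atp6v0e2 were the least abundant members. These intervals are per gene and are not adjusted for the number of genes.

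**Figure D2:**
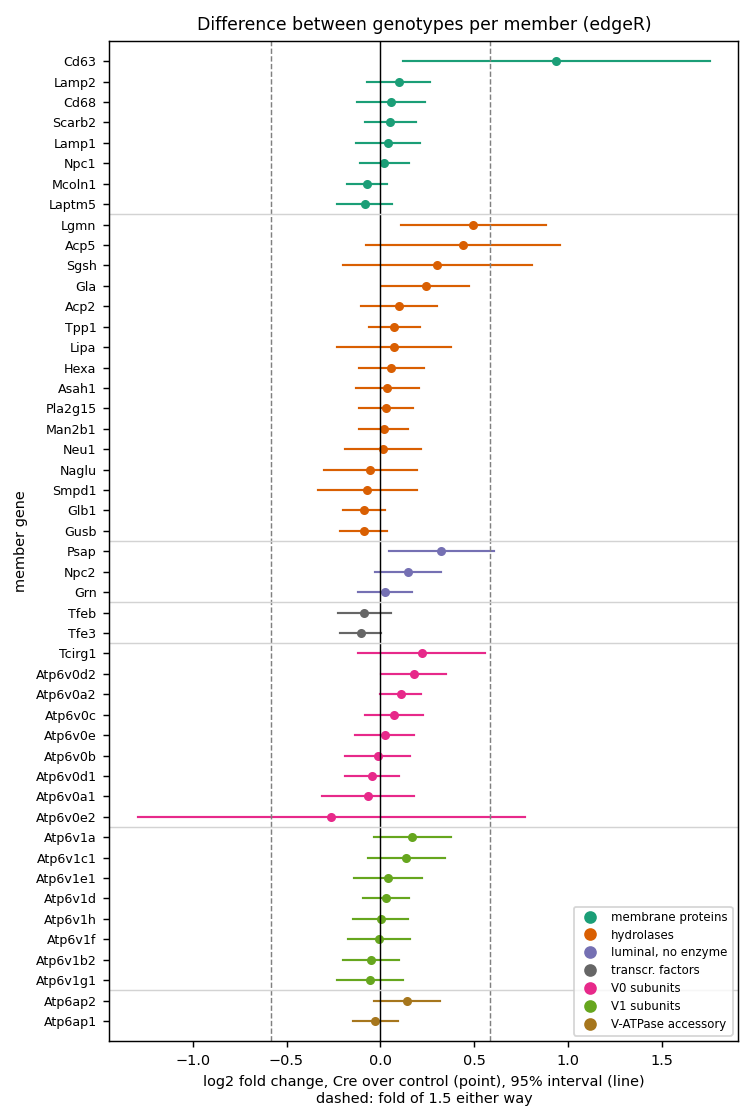
Log2 fold change of each member between the genotypes, Cre over control (points), with its 95% interval from edgeR (lines). Dashed lines mark a fold of 1.5 either way. The intervals of all 8 V1 subunits lie between the dashed lines, and that of Cd63 runs from 0.12 to 1.75.

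Levels between genes are compared per exon length, as CPM per kb. Psap was the most abundant member at 2390 ± 116 CPM per kb (SD, n = 3 controls). Laptm5 (810 ± 27.6), Cd68 (549 ± 46.5), Lamp1 (435 ± 27.1), the pump subunit Atp6v0d2 (419.7 ± 29.1) and Hexa (365 ± 18.3 CPM per kb) followed. At the other end were Smpd1 at 7.33 ± 1.15, Sgsh at 0.238 ± 0.0416 and Atp6v0e2 at 0.114 ± 0.0228 CPM per kb. In this order 19 of the 47 neighbouring pairs had control values that did not overlap, so most neighbours did not differ beyond their spread. With the longest transcript in place of all exons as length the first 4 members kept their order, and Grn moved to the fifth place, above Atp6v0d2 and Hexa. In 21.6% of its exon bases Sgsh overlaps another annotated gene, and as the labels do not state a strand setting for the counting, its level is uncertain. Some other members overlap another gene in a smaller part of their exon bases, and the same limit holds for them. The largest such parts were 12.8% for Hexa, 12.6% for Acp2, 11.8% for Atp6v0b, 9.86% for Atp6v0a2 and 9.31% for Lamp1. The summed level of all members was 25158 to 27486 CPM in the controls and 26338 to 31304 CPM in the Cre libraries.

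**Figure D3:**
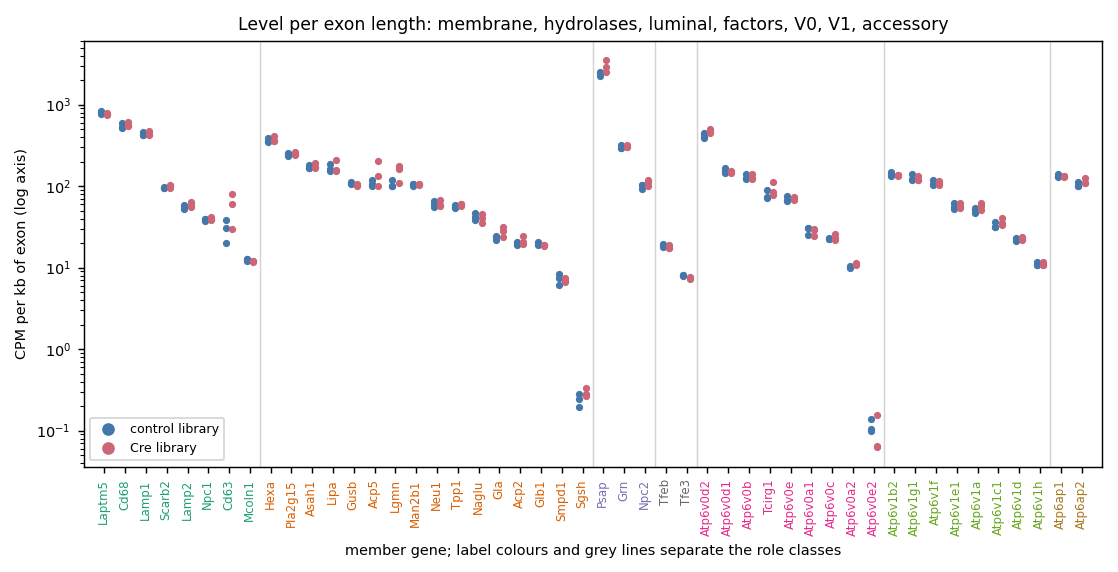
Level of each member in CPM per kb of exon (log axis) in the 3 control libraries (blue) and the 3 Cre libraries (red), ordered within each role class by the control mean. Psap is highest in both groups, and Sgsh and Atp6v0e2 lie under 1 CPM per kb.

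Among the 8 membrane proteins the abundant coat proteins were at similar levels in both genotypes. Lamp1, a main glycoprotein of the lysosome membrane, was at 1248, 1123 and 1123 CPM in the controls and at 1141, 1283 and 1174 CPM in the Cre libraries. Its log2 fold change was 0.04 ± 0.07 (SE), and the groups overlapped. Lamp2, its relative that also serves in autophagy, was at 558, 536 and 497 CPM against 532, 607 and 562 CPM, with Cre libraries 2 and 3 above every control. Cd68, a macrophage member of the same family, was at 757, 661 and 651 against 681, 764 and 706 CPM, also overlapping. Laptm5, a membrane protein of lysosomes in blood cells, was at 3145, 2948 and 3107 CPM against 2996, 2883 and 2796 CPM, a log2 fold change of -0.08 ± 0.06 (SE). Scarb2, which carries glucocerebrosidase to the lysosome, and the cholesterol exporter Npc1 had log2 fold changes of 0.05 and 0.02.

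Cd63, a tetraspanin of late endosomes and lysosomes, had the largest difference of the members and was uneven in both groups. It was at 142, 112 and 73.6 CPM in control libraries 1, 2 and 3 and at 110.6, 295 and 221 CPM in Cre libraries 1, 2 and 3. Cre libraries 2 and 3 were above every control, and Cre library 1 lay inside the control range. The gene lies at chr10:128900989-128912822 and has 4 merged exon blocks. The log2 fold change was 0.94 ± 0.35 (SE, edgeR adjusted p 0.333), and it was 0.60 without Cre replicate 2 and 1.24 without Cre replicate 1. A pseudogene, Cd63-ps, has a row of its own in the table at a mean of 0.616 CPM in the controls. Mcoln1, a calcium-permeable channel that releases calcium from lysosomes, was at 95.9, 95.8 and 91.7 CPM against 88.8, 90.7 and 90.3 CPM. All its Cre values were below all its control values, by a log2 fold change of only -0.07 ± 0.05 (SE, edgeR adjusted p 0.591). Such a lack of overlap occurred in 6 of the 48 members, 4 lower (Mcoln1, Glb1, Gusb and Tfe3) and 2 higher (Psap and Atp6v0a2), and in 17.9% of all genes, 9.22% lower and 8.63% higher.

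No hydrolase passed the test, and Lgmn, Acp5 and Gla, whose values differed between the Cre libraries, had 3 of the 4 highest fold changes of the 16. Lgmn, legumain, an endopeptidase that cuts after asparagine and processes cathepsins, was at 274, 235 and 232 CPM in the controls and at 255, 414 and 374 CPM in Cre libraries 1, 2 and 3. Cre libraries 2 and 3 were above every control, and Cre library 1 was not. Lgmn lies at chr12:102394084-102439813, with 14 merged exon blocks, and shares no exon base with another annotated gene. The log2 fold change was 0.49 ± 0.17 (SE, edgeR adjusted p 0.28), and over the alternatives the adjusted p ran from 0.0175 to 0.545. Without Cre replicate 1 edgeR called it, with a log2 fold change of 0.67 and an adjusted p of 0.0175, and it was then the only member among 286 called genes. Gla, alpha-galactosidase A, which removes galactose from glycolipids, was at 80.8, 76.7 and 71.3 CPM against 77.5, 102 and 91 CPM. It showed the same order of Cre libraries, and its log2 fold change of 0.24 ± 0.10 (SE, edgeR adjusted p 0.374) became 0.14 without Cre replicate 2. Acp5, the tartrate-resistant acid phosphatase known from osteoclasts, was at 239, 201 and 213 CPM against 202, 409 and 274 CPM. Its Cre library 1 was within the control range. The log2 fold change was 0.44 ± 0.22 (SE, edgeR adjusted p 0.471), 0.13 without Cre replicate 2 and 0.64 without Cre replicate 1.

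The summed interstitial macrophage markers given above ranked the Cre libraries 3, 2, 1, whereas Lgmn, Cd63, Gla and Acp5 ranked them 2, 3, 1. Cre library 2 was the highest Cre library for 39 of the 48 members and for 37.1% of all genes. Acp5, Tcirg1 and Atp6v0d2, which are known from osteoclasts, were among these 39. Mmp9 of the osteoclast markers was also highest in Cre library 2. Of the other osteoclast markers, Ctsk, Dcstamp, Ocstamp and Itgb3 were highest in Cre library 3. Nfatc1 had its highest Cre value in Cre library 1, and Calcr and Oscar had at most 2 counts in any library. The part of either marker list in the members' differences was not tested. Over all members 10 of 48 were above every control in Cre libraries 2 and 3 but not in Cre library 1, namely Lamp2, Cd63, Gla, Lgmn, Tpp1, Acp5, Npc2, Atp6v0c, Atp6v0d2 and Atp6v1a, against 6.85% of all genes.

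**Figure D4:**
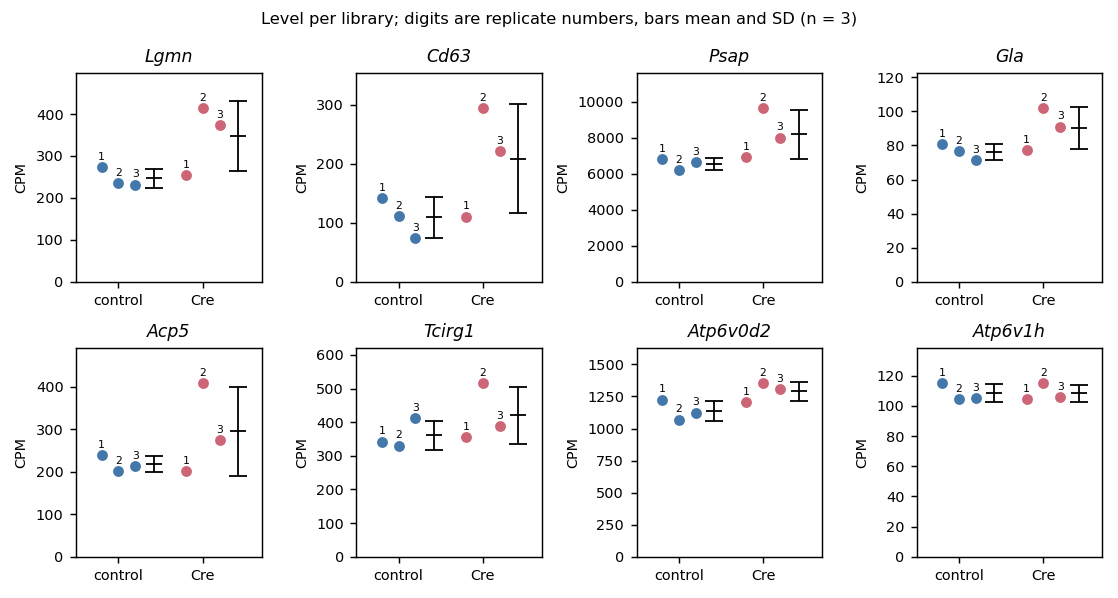
CPM per library for 8 members, from 0 on a linear axis, with the replicate number at each point and the mean and SD of 3 libraries beside each group. In Lgmn, Cd63, Gla and Acp5 Cre libraries 2 and 3 lie above the controls and Cre library 1 does not, and Atp6v1h is shown as a member with equal group means.

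The other 13 hydrolases included 2 whose groups did not overlap. Glb1, lysosomal beta-galactosidase, was at 62.2, 60.4 and 57.3 CPM against 56, 56.9 and 56.7 CPM. Gusb, beta-glucuronidase, was at 518, 493 and 489 CPM against 483, 472 and 455 CPM. In both genes every Cre value was below every control, with log2 fold changes of -0.09 each and edgeR adjusted p of 0.528 and 0.57. Hexa, a subunit of beta-hexosaminidase, was at 769, 698 and 716 against 724, 828 and 720.4 CPM, and the phospholipase Pla2g15 at 757, 704 and 759 against 742, 796 and 727 CPM, and both overlapped. The remaining 9, the lipid hydrolases Lipa, Asah1 and Smpd1, the glycan hydrolases Man2b1, Naglu, Neu1 and Sgsh, the peptidase Tpp1 and the acid phosphatase Acp2, had log2 fold changes between -0.07 and 0.30, the highest for Sgsh at about 1 CPM. Over the 16 hydrolases the median log2 fold change was 0.05, with 12 above 0.

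Psap, the precursor of the saposins that help hydrolases reach their glycolipid substrates, was the most abundant member, and each Cre value was above each control value. It was at 6815, 6200.4 and 6658 CPM in the controls and at 6952, 9661 and 8017 CPM in Cre libraries 1, 2 and 3. The groups did not overlap, but Cre library 1 was only slightly above control library 1. Psap lies at chr10:60277627-60302597, with 17 merged exon blocks. The log2 fold change was 0.32 ± 0.12 (SE, edgeR adjusted p 0.329, DESeq2 adjusted p 0.0653), and 0.19 without Cre replicate 2. Npc2, which hands cholesterol to Npc1 in the lumen, was at 559, 507 and 555 CPM against 547, 646 and 603 CPM, a log2 fold change of 0.15 ± 0.08 (SE). Grn, the progranulin precursor, was at 1112, 1015 and 1029 CPM against 1041, 1112 and 1059 CPM, a log2 fold change of 0.03 ± 0.06 (SE), and overlapped.

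The 2 transcription factors among the members were slightly lower in the Cre libraries, by amounts that did not pass the test. Mitf and Tfec, of the same family but outside the members, had log2 fold changes of 0.05 and 0.13 (edgeR adjusted p 0.803 and 0.590). Tfe3 was at 72.9, 75.2 and 74.9 CPM against 71.7, 67.2 and 68.5 CPM, without overlap, a log2 fold change of -0.10 ± 0.05 (SE, edgeR adjusted p 0.411). Tfeb was at 109, 102 and 112 CPM against 98.6, 108 and 97.5 CPM, with overlap, a log2 fold change of -0.09 ± 0.06 (SE, edgeR adjusted p 0.634). TFEB and TFE3 are regulated largely by phosphorylation and location in the cell, which mRNA levels do not measure.

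The 9 V0 subunits had a median log2 fold change of 0.02, and none passed. Atp6v0d2, the d subunit found in macrophages and osteoclasts, was the most abundant pump transcript per length. It was at 1225, 1070 and 1124 CPM in the controls and at 1206, 1356 and 1306 CPM in the Cre libraries, with Cre library 1 below control library 1. The log2 fold change was 0.18 ± 0.08 (SE, edgeR adjusted p 0.382). Atp6v0d1, the broadly expressed d subunit, was at 295, 272 and 260 CPM against 267, 275 and 260 CPM. Per length, Atp6v0d2 made up 73.2, 72.2 and 74.1% of the d transcripts in the controls and 74.9, 76.5 and 76.9% in the Cre libraries. The shares did not overlap and differed by 2.89 percentage points, and the two-sided exact permutation p of 0.1 is the smallest that 3 against 3 libraries can give. Over the 5 shares compared, the adjusted p was 0.5.

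The a subunit, which sets where the pump resides, was mostly Tcirg1, the a3 form known from osteoclasts and macrophage lysosomes. Tcirg1 was at 342, 330.4 and 411 CPM against 356, 517 and 388 CPM, so only Cre library 2 lay above every control. Its log2 fold change was 0.22 ± 0.15 (SE, edgeR adjusted p 0.606), and 0.04 without Cre replicate 2. Atp6v0a2 was at 70.3, 68.9 and 67.3 CPM against 76.7, 74.2 and 71.9 CPM, without overlap, a log2 fold change of 0.11 ± 0.05 (SE, edgeR adjusted p 0.4). Atp6v0a1 was at 202, 202 and 166 CPM against 191, 159 and 196 CPM, and overlapped. Per length Tcirg1 made up 66.5% ± 4.47 (SD, n = 3) of the a transcripts in the controls and 69.8% ± 5.59 in the Cre libraries (exact permutation p 0.5, adjusted 0.75). Of the e subunits nearly all transcript was Atp6v0e, at 277, 243 and 252 against 258, 276 and 249.9 CPM. Atp6v0e2 was at 0.232, 0.333 and 0.246 CPM against 0.372, 0.155 and 0.149 CPM, which rests on 8 to 22 counts in a library. Its share of the e transcripts was 0.165% ± 0.0426 in the controls and 0.135% ± 0.0774 (SD, n = 3) in the Cre libraries (exact permutation p 0.6, adjusted 0.75). The proteolipid Atp6v0c, which forms the proton-carrying ring, was at 75.4, 75.9 and 77.5 CPM against 73.9, 87.5 and 79.2 CPM, and its ring partner Atp6v0b had a log2 fold change of -0.01 ± 0.07 (SE).

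**Figure D5:**
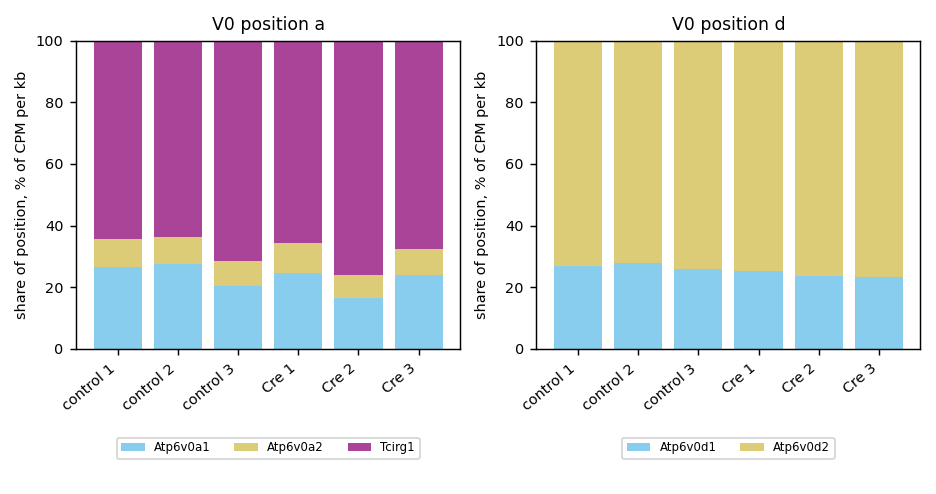
Share of each alternative a subunit (left) and d subunit (right) of V0 in the transcripts of its position, as percent of CPM per kb, in each library (stacked bars that sum to 100%). Tcirg1 and Atp6v0d2 hold most of their positions in every library, with Atp6v0d2 between 72.2 and 76.9%.

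No V1 subunit passed the test, and their levels differed little between genotypes. The 8 subunits had log2 fold changes between -0.06 and 0.17, and all their 95% intervals lay between -0.23 and 0.37. Atp6v1b2, the widely expressed form of the B subunit, was the most abundant V1 transcript per length and was at 800.1, 731 and 702 CPM against 713, 724 and 719 CPM. Atp6v1a, the catalytic A subunit, was at 325, 305 and 281 CPM against 305, 375 and 344 CPM, a log2 fold change of 0.17 ± 0.09 (SE, edgeR adjusted p 0.484). Atp6v1c1, which takes part in joining V1 to V0, was at 204, 179 and 175 CPM against 188, 226 and 199 CPM, and the stalk subunit Atp6v1g1 at 161, 141 and 136 CPM against 137, 149 and 135 CPM. Both overlapped, as did Atp6v1d, Atp6v1e1, Atp6v1f and Atp6v1h, whose log2 fold changes lay between -0.01 and 0.04. Of the accessory proteins, Atp6ap1 was at 423, 400.2 and 397 CPM against 395, 404 and 398 CPM and Atp6ap2, the prorenin receptor, at 294, 263 and 260 CPM against 286, 328 and 289.8 CPM. Their log2 fold changes were -0.03 ± 0.05 and 0.14 ± 0.08 (SE), and both overlapped.

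Many members shared an order of libraries within each genotype group. Control library 1 was the highest control for 39 of 48 members, where 36.7% of all genes had this, and Cre library 2 the highest Cre library for 39, against 37.1%. Both held for 33 members, including 7 of the 8 V1 subunits and 12 of the 16 hydrolases, against 19.5% of all genes. The median V1 subunit was 0.11 above the control mean on the log2 scale in control library 1 and 0.08 above it in Cre library 2, and between -0.06 and 0.01 in the other libraries. These were also the deepest libraries of their groups, with 61131500 and 65443314 counts, and had the lowest TMM factors, 0.986 and 0.987. With library size alone as the scale the count was 27 of 48. The part of depth in this order was not tested.

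Other genes of the pathway, from lists that hold no member, gave 0 edgeR calls among 79 tested of 83 listed, while 6 were higher and 3 lower before adjustment (p below 0.05). These are 9 of 79, where 12.8% of all genes were below that p. DESeq2 called 3 of them higher and 0 lower, where it called 2.37% of all genes higher and 1.51% lower, and edgeR without Cre replicate 1, added after the data were seen, also called 3 higher. Of 9 genes that sort enzymes to the lysosome, Igf2r, the large mannose-6-phosphate receptor, was at 1.68, 1.496 and 1.14 CPM in the controls and at 3.99, 21.1 and 23.9 CPM in the Cre libraries. Its log2 fold change was 3.50 ± 0.61 (SE, edgeR adjusted p 0.146). The adjusted p was 0.000233 with DESeq2, and 0.000192 with edgeR without Cre replicate 1. In GENCODE M21 Igf2r overlaps the antisense gene Airn, so their reads cannot be told apart where the counting ignored strand. Nagpa, which uncovers the mannose-6-phosphate tag, was at 150.4, 139.9 and 134 CPM against 132, 126 and 124 CPM (log2 fold change -0.15, edgeR adjusted p 0.345).

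Among 26 other hydrolases and related lysosomal proteins, the carboxypeptidase Scpep1 was at 109, 109 and 117 CPM against 125, 151 and 144 CPM, without overlap. The log2 fold change was 0.33 ± 0.08 (SE, edgeR adjusted p 0.168), and DESeq2 and edgeR without Cre replicate 1 called it (adjusted p 0.00607 and 0.0359). Plbd1, a phospholipase B-like protein, was at 1.61, 2.13 and 1.27 CPM against 2.62, 3.01 and 4.96 CPM (log2 fold change 1.08, edgeR adjusted p 0.194, DESeq2 adjusted p 0.0148). Lower without overlap were Galns, Arsb and Manba. Galns, a sulfatase of keratan sulfate, was at 100.5, 95.1 and 90.9 against 87.9, 80.1 and 75.8 CPM. The arylsulfatase Arsb was at 31.5, 32.0 and 32.5 against 30.0, 28.4 and 28.3 CPM. Manba was at 186, 172 and 172 against 169, 161 and 160 CPM. Their edgeR adjusted p were 0.222, 0.307 and 0.457. Of the 26, 3 were lower and 2 higher (Scpep1 and Plbd1) without overlap, against 9.22% and 8.63% of all genes. The median log2 fold change of the 26 was -0.016. Of 18 other membrane proteins the metal transporter Slc11a1 was at 6.86, 8.76 and 3.256 CPM against 5.39, 19.3 and 19 CPM (edgeR adjusted p 0.377), and Lmbrd1, of lysosomal cobalamin export, at 109, 109 and 103 against 112, 117 and 113 CPM (edgeR adjusted p 0.503). Of 16 genes of lysosomal mTORC1 signalling and the MiT/TFE family, the GTPase Rragd was at 0.714, 0.682 and 0.387 CPM against 0.609, 5.95 and 2.58 CPM. Its edgeR adjusted p was 0.241, and 0.0194 without Cre replicate 1. Fnip2, a partner of folliculin, was at 98.7, 109 and 97.7 against 106, 115 and 120.2 CPM (edgeR adjusted p 0.382). For Igf2r, Slc11a1 and Rragd too, Cre libraries 2 and 3 were far above Cre library 1, as the interstitial macrophage markers were, whose part was not tested.

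The alternative pump subunits of other tissues were at low levels. Of 6 listed, Atp6v1b1, Atp6v0a4, Atp6v1e2 and Atp6v1g3 did not pass the filter on low counts and were at most 0.0929 CPM in any library. Atp6v1g2 was at 2.91, 3.44 and 2.92 CPM against 2.65, 2.87 and 2.25 CPM, without overlap (log2 fold change -0.25, edgeR adjusted p 0.577), and Atp6v1c2 was between 0.0498 and 0.299 CPM. Of 8 V-ATPase assembly genes 0 had p below 0.05 before adjustment. The smallest p belonged to Ccdc115, at 80.9, 71 and 76.4 against 69.5, 72.7 and 68.8 CPM, and Dmxl1, at 57, 69 and 59.7 against 66.7, 68.3 and 69.3 CPM.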

How the data were processed

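The authors deposited whole-number counts per gene without normalization, in 1 column per mouse library. The submitters' processing notes name STAR 2.6.1, featureCounts 1.6.4, cutadapt 2.5 and the build GRCm38, with no role or order. The sources used here give neither the annotation release nor the strand setting. RNA came from the RNeasy Plus Micro kit with polyA capture, per the labels' protocols.

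Counts were fitted in R 4.3.3 with edgeR 4.0.16: filterByExpr by group (minimum count 10, 15147 of 46078 rows left), TMM, estimateDisp, glmQLFit and a two-sided glmQLFTest without covariates, Benjamini-Hochberg over all tested genes, threshold 0.05. The biological coefficient of variation was 14.4%. Standard errors are the absolute log2 fold change over the square root of F, and 95% intervals use the test's degrees of freedom. The code was tested on simulated data. Exon lengths are unions of GENCODE M21 exons (GRCm38). No pair of libraries within a group agreed within sampling noise (chi-square per degree of freedom 21.9 to 57.5).

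Members and lists were chosen with earlier results of these data known. Within each role class the genes given in full were up to 4 of smallest p and up to 2 of highest level per length, members whose groups did not overlap, and all alternative V0 a, d and e subunits. Of each list of other pathway genes the 2 of smallest p were named. Further genes were chosen after their values were seen. Scaling was varied (RLE, upper quartile, library size), as were the tool (DESeq2 1.42.0; limma-voom, limma 3.58.1), the filter (none; 5 CPM or more in 3 libraries), dispersions (robust), replicate blocking, the libraries (each left out in turn) and the gene length (longest transcript). Figures used matplotlib 3.10.9.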

Additional observations from a re-analysis of the deposited data

How the results depend on the processing

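The count of members past the threshold was 0 in the main comparison and 1 (Lgmn) with DESeq2. When a library was left out it ranged from 0 to 1, the 1 being Lgmn without Cre replicate 1. Under the other 8 alternatives it was 0. Over all genes 2 passed, against 564 with DESeq2, 523 without a filter on low counts, 10 with the replicate block and 1 with robust dispersions. When a library was left out the count ranged from 1 to 286 (1 without control replicate 2, 67 without control replicate 3, 9 without Cre replicate 2 and 286 without Cre replicate 1). Same-numbered libraries correlated at -0.0098, -0.16 and 0.069 in their deviations from the group means, and not every library correlated best with its own number, so the numbers were not taken to pair mice. With the replicate block 0 members passed. Car4 kept its direction, with log2 fold changes from -3.43 to -2.99 when a library was left out. It lost its call without control replicate 2 (-3.23, edgeR adjusted p 0.0549) and with robust dispersions (-3.23, adjusted p 0.0719), and its adjusted p ranged from 4.94e-29 to 0.0719.

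The sign of the log2 fold change turned in 22 of the 48 members under at least 1 alternative, whose main values lay within 0.0992 of 0, and the smallest adjusted p there was 0.843. Of these, 14 are among the 17 members given by ranges, and Atp6v1h (main value 0.0007) turned with library size alone (-0.0067) and without a filter (-0.00085) as well as when libraries were left out. The other 8 turned only when 1 library was left out. On the log2 scale these 8 ranged from -0.012 (without Cre replicate 2) to 0.098 for Hexa, from -0.012 (without Cre replicate 2; -0.0077 without control replicate 2) to 0.056 for Pla2g15, from -0.0033 (without Cre replicate 2; -0.0015 without control replicate 2) to 0.066 for Grn, and from -0.020 (without Cre replicate 2; -0.019 without control replicate 2) to 0.078 for Atp6v0e. They ranged from -0.16 to 0.024 (without Cre replicate 2) for Atp6v0a1 and, each highest without control replicate 1, from -0.090 to 0.0078 for Atp6v0d1, from -0.096 to 0.0040 for Atp6v1b2 and from -0.11 to 0.018 for Atp6v1g1. The cause was not tested. Class medians moved by less than the spread between replicates, but their sign turned for the hydrolases without Cre replicate 2 (-0.012), for V0 without control replicate 2 (-0.019) and for V1 without control replicate 2, control replicate 3 or Cre replicate 2 (-0.032 to -0.0073). With the longest transcript as length the control levels of Laptm5, Lamp1 and Atp6v0d2 became 1179, 523 and 449 CPM per kb. Atp6v0e2 and Sgsh were not tested under the filter of 5 CPM. Marker sums without the most abundant marker were chosen after seeing the data.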
